A study of Mus musculus with 13 samples.

Results

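Mast cells are tissue-resident immune cells packed with secretory granules, and 10 genes that mark them were followed here in white fat: the granule protease genes Cma1, Cpa3, Mcpt4, Tpsb2 and Tpsab1, the IgE receptor genes Ms4a2 and Fcer1a, the histamine-synthesis gene Hdc, the growth-factor receptor gene Kit and the transcription factor gene Gata2. They were taken by name, and each was represented by the probe set that the array's annotation pairs with that gene alone; all 10 of 10 were measured, among 18820 genes in all. The tissue was the epididymal fat depot, a visceral depot, of male mice aged 18 weeks, on 13 Affymetrix arrays. Wild-type mice carried the label C57/BL6 (CD45.2+). P2X7 knockout mice were B6.129P2-P2rx7tm1Gab/J (P2X7-/-), backcrossed for 7 generations; both lines came from Jackson and were bred in the submitters' facility, and the labels do not say that they were littermates. From 6 weeks of age and for 12 weeks they ate chow, whose fat supplied 13% of the energy, or a high-fat diet, where it supplied 60%. There were 4 arrays for the knockout mice on high-fat diet and 3 for each other combination of genotype and diet. The knockout is constitutive, so every cell of the fat carried it.

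Mast cells reach tissues as progenitors from the bone marrow and mature there under stem cell factor, the ligand of the receptor Kit. Their granules hold proteases and histamine bound to heparin, and antigen that crosslinks IgE on the high-affinity IgE receptor releases them. The connective-tissue type, which is the type known in fat, stores chymases, tryptases and carboxypeptidase A3 together, while the mucosal type of the gut stores other chymases. GATA2 is a transcription factor needed to form mast cells, and it binds DNA at sites built around the letters GATA.

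Sequence upstream of the start site is shown for the genes that moved together in these data and hold one of the GATA-type motifs AGATAA or TGATAA, searched on both strands within 250 bases before the start in RefSeq's promoter table (GRCm38.p6). The table held windows for 8 of the 10 genes and none for Tpsb2 and Tpsab1. Each line gives the 120 bases before the start on the gene's own strand, 5′ to 3′, with the motif in capitals; a motif on the other strand reads TTATCT or TTATCA.
Cpa3: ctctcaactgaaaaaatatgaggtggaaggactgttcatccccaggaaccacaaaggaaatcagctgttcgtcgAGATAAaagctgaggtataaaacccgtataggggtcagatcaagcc
Mcpt4: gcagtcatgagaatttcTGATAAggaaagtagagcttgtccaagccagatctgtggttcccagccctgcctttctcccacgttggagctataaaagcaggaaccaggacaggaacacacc
Ms4a2: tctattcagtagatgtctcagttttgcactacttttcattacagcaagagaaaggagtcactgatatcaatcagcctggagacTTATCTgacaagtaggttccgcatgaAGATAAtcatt
Fcer1a: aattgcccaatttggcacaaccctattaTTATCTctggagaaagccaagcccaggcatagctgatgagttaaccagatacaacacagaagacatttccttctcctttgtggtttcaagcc

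The Cpa3 stretch is chr3:20242182-20242301, that of Mcpt4 chr14:56062311-56062430, that of Ms4a2 chr19:11623720-11623839 and that of Fcer1a chr1:173227230-173227349, all on the minus strand. Of the 8 genes with a window, these 4 held a motif; Cma1, Kit, Hdc and Gata2 held none. Ms4a2 held 3, of which 1 lies upstream of the stretch shown. Over the whole table, 16.6% of 32851 windows and 18.8% of 27025 genes held one. A match describes the letters only and is not evidence of binding.

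The probe set for P2rx7 read 8.21 ± 0.27 (SD, n = 3) on a log2 scale in wild-type mice on chow and 8.06 ± 0.16 (n = 3) in knockout mice on chow. On high-fat diet it read 9.53 ± 0.17 (n = 3) and 9.06 ± 0.11 (n = 4), without overlap, and neither difference passed limma's test (adjusted p = 0.741 and 0.464). Whether these probes lie inside the altered stretch of the knockout allele is not known here, so this probe set does not check the genotype labels. Arrays of one group correlated at 0.993 to 0.998 over all genes, and array medians over all genes lay between 6.56 and 6.69. Nothing in the labels ties an array to a single animal, and the p-values cover only how these samples varied, which may be technical. The mean of 12 liver transcripts, which fat should lack, differed between arrays: it lay between 6.82 and 7.81 in wild-type chow arrays, between 5.27 and 6.86 in wild-type high-fat arrays, between 5.57 and 5.64 in knockout chow arrays, and between 4.95 and 6.00 in knockout high-fat arrays.

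Most granule protease and IgE receptor genes rose with high-fat diet in fat of both genotypes. In wild-type mice 5 of the 10 genes rose (Cma1, Cpa3, Mcpt4, Tpsb2 and Ms4a2), 1 fell (Gata2) and 4 did not pass. In knockout mice 7 rose (the same 5 with Fcer1a and Hdc), 0 fell and 3 did not pass. Changes that passed were 1.79-fold to 2.97-fold upward in wild-type mice and 1.39-fold to 3.55-fold upward in knockout mice. In bulk tissue, fewer or more mast cells and less or more RNA per mast cell cannot be told apart.

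These counts stand against a broad response of the tissue to diet. Over all genes, 17.7% rose and 18.1% fell in wild-type mice, and 14.5% rose and 19.7% fell in knockout mice. The median log2 change of the 10 genes was 0.98 in wild-type mice, against -0.03 over all genes, and 1.10 in knockout mice, against -0.06. The share of members whose diet groups did not overlap was near that of all genes in wild-type mice. There 3 members were higher on high-fat diet without overlap and 1 was lower, where 20.8% and 22.5% of all genes were; in knockout mice the numbers were 7 and 1, where 17.5% and 25.6% of all genes were. Averaged over both genotypes, 7 of the 10 genes rose and 1 fell, where 20.3% and 26.3% of all genes did.

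Carboxypeptidase A3, encoded by Cpa3, trims the ends of peptides inside the granule. Its log2 values were 8.15, 7.57 and 8.38 in wild-type mice on chow and 9.83, 8.38 and 10.59 on high-fat diet, and 8.19, 8.23 and 7.84 in knockout mice on chow and 9.18, 10.51, 10.10 and 9.85 on high-fat diet. Every high-fat array was above every chow array, although the highest wild-type chow array and the lowest wild-type high-fat array nearly met. The rise was 1.57 ± 0.45 (SE from limma) in wild-type mice, or 2.97-fold (adjusted p = 0.0142), and 1.82 ± 0.42 in knockout mice, or 3.54-fold (adjusted p = 0.00414).

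Cma1 encodes a chymase, a serine protease of the granule. It read 4.82, 4.63 and 5.06 in wild-type mice on chow and 6.32, 5.22 and 7.04 on high-fat diet, and 5.05, 5.04 and 4.92 in knockout mice on chow and 5.62, 6.92, 6.49 and 6.12 on high-fat diet. Here too the lowest of the 7 high-fat arrays lay above the highest of the 6 chow arrays. The log2 rise was 1.36 ± 0.38 in wild-type mice (2.56-fold, limma adjusted p = 0.0118) and 1.28 ± 0.35 in knockout mice (2.43-fold, adjusted p = 0.0121).

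Mcpt4 encodes the chymase that is a hallmark of connective-tissue mast cells in mice. Its values were 7.27, 6.45 and 7.44 in wild-type mice on chow and 8.56, 7.23 and 9.66 on high-fat diet, and 7.03, 6.98 and 6.77 in knockout mice on chow and 8.02, 9.22, 9.08 and 8.70 on high-fat diet. The wild-type groups overlapped, because the second high-fat array read below 2 of the chow arrays, while the knockout groups were apart. Mcpt4 rose by 1.43 ± 0.48 on the log2 scale in wild-type fat (limma adjusted p = 0.0318) and by 1.83 ± 0.45 in knockout fat (adjusted p = 0.00619). Mcpt4 and Cma1 lie on chromosome 14 with 2 measured genes between them, in the cluster of mast cell proteases.

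The tryptase genes Tpsb2 and Tpsab1 are adjacent on chromosome 17 among the measured genes and are close copies, so probes of one may bind transcripts of the other. Tpsb2 read 6.52, 5.76 and 6.52 in wild-type mice on chow and 7.36, 6.54 and 8.23 on high-fat diet, and 6.42, 6.41 and 6.17 in knockout mice on chow and 6.89, 8.25, 7.66 and 7.49 on high-fat diet. Its high-fat arrays were all above its chow arrays, in wild-type mice by a margin of under 0.1 on the log2 scale. It rose by 1.11 ± 0.38 in wild-type fat (limma adjusted p = 0.037) and by 1.24 ± 0.36 in knockout fat (adjusted p = 0.0161). Tpsab1, whose product C57BL/6 mice are known to lack through a splicing defect, did not pass. It lay between 4.42 and 4.57 in wild-type mice on chow, between 4.25 and 5.37 on high-fat diet, between 4.34 and 4.63 in knockout mice on chow and between 4.51 and 5.12 on high-fat diet. The diet difference of Tpsab1 over both genotypes was 0.29 ± 0.15, with a 95% interval from -0.05 to 0.62 (limma adjusted p = 0.149).

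Cma1, Cpa3 and Tpsb2 were the 3 members whose 7 high-fat arrays all lay above the 6 chow arrays, a pattern met by 13.1% of all genes.

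**Figure D1:**
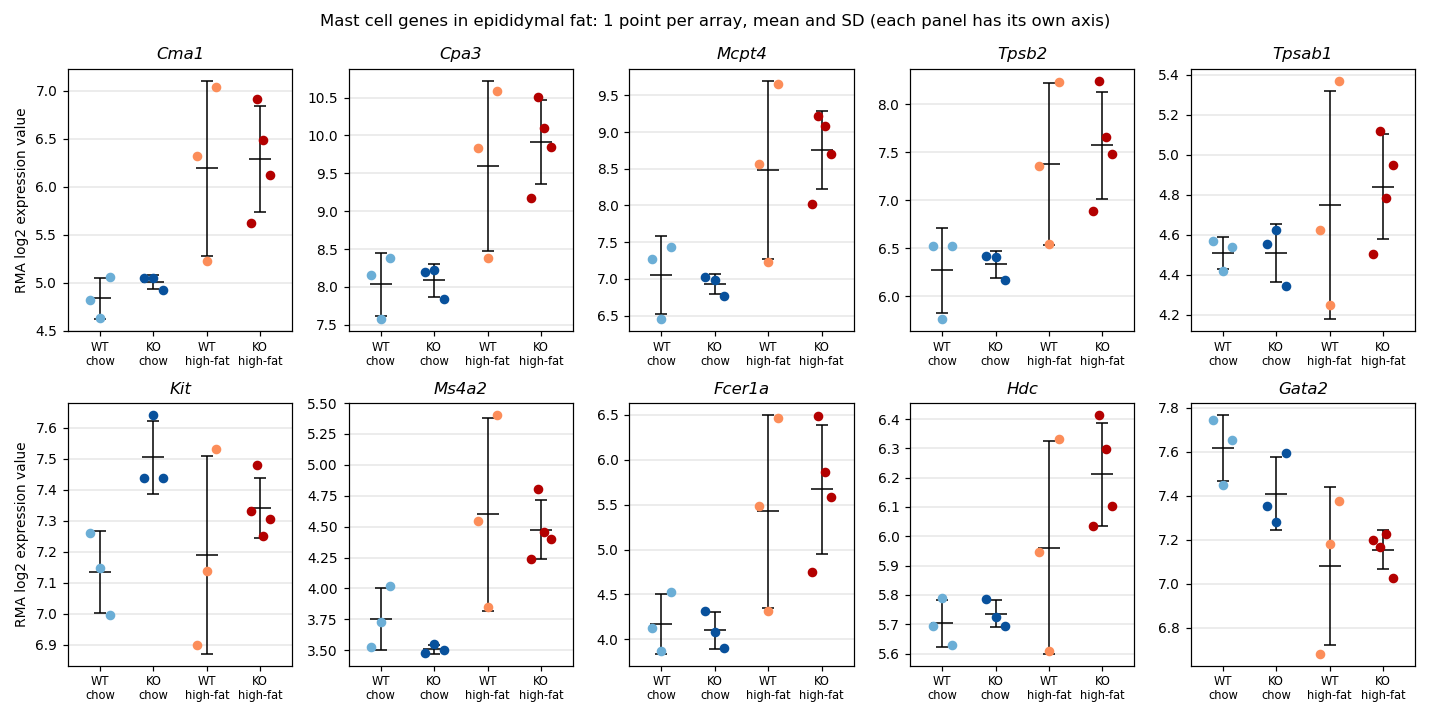
Deposited log2 expression value of each of the 10 mast cell genes, 1 point per array, in wild-type (WT) and P2X7 knockout (KO) mice on chow and on high-fat diet; horizontal bars are group means and whiskers are SDs (n = 3, 3, 3 and 4), and each panel has its own vertical axis. In the Cma1, Cpa3 and Tpsb2 panels all high-fat arrays are above all chow arrays, the spread is wider on high-fat diet, and Kit and Gata2 do not follow the same pattern.

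The high-affinity IgE receptor consists of an alpha chain (Fcer1a) that binds IgE, a beta chain (Ms4a2) that amplifies the signal and a gamma chain (Fcer1g) that several other receptors of myeloid cells share. Fcer1a read 4.12, 3.87 and 4.53 in wild-type mice on chow and 5.49, 4.32 and 6.47 on high-fat diet, and 4.32, 4.08 and 3.90 in knockout mice on chow and 4.74, 6.49, 5.86 and 5.59 on high-fat diet. The wild-type groups overlapped through the second high-fat array, and the knockout groups did not overlap. Fcer1a rose in knockout mice by 1.57 ± 0.44, or 2.97-fold (limma adjusted p = 0.0131). In wild-type mice its difference was 1.25 ± 0.47, which did not pass (adjusted p = 0.0522).

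Ms4a2 read 3.52, 3.72 and 4.02 in wild-type mice on chow and 4.54, 3.85 and 5.40 on high-fat diet, and 3.48, 3.55 and 3.50 in knockout mice on chow and 4.24, 4.80, 4.46 and 4.40 on high-fat diet. Again the second wild-type high-fat array fell within the chow range, and the knockout groups were apart. Ms4a2 rose by 0.84 ± 0.28 in wild-type fat (limma adjusted p = 0.0331) and by 0.97 ± 0.27 in knockout fat (adjusted p = 0.0122). On chow, Ms4a2, Fcer1a, Tpsab1 and Cma1 all read far below the array medians over all genes of 6.56 to 6.69. No detection calls were used, so how near these values lie to background, and the true size of their rises, is not known. The shared gamma chain gene Fcer1g, a gene of the signalling list named after its values were seen, rose by 1.32 ± 0.15 in wild-type mice (adjusted p = 1.06e-05) and by 1.23 ± 0.14 in knockout fat (adjusted p = 1.39e-05).

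Hdc encodes histidine decarboxylase, the only enzyme that makes histamine. Its values were 5.69, 5.79 and 5.63 in wild-type mice on chow and 5.94, 5.61 and 6.33 on high-fat diet, and 5.79, 5.73 and 5.70 in knockout mice on chow and 6.03, 6.41, 6.30 and 6.10 on high-fat diet. All 4 knockout high-fat arrays exceeded the knockout chow arrays, while the wild-type groups overlapped. The change was small: 0.48 ± 0.14 in knockout mice, or 1.39-fold (limma adjusted p = 0.0194), and 0.26 ± 0.15 in wild-type mice (adjusted p = 0.219).

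Kit, the receptor on which mast cells depend for survival, showed no diet change that passed. Kit read 7.26, 7.15 and 7.00 in wild-type mice on chow and 6.90, 7.14 and 7.53 on high-fat diet, and 7.44, 7.64 and 7.44 in knockout mice on chow and 7.33, 7.48, 7.25 and 7.31 on high-fat diet. The diets overlapped in both genotypes. Averaged over the genotypes the difference was -0.05 ± 0.09 on the log2 scale, with a 95% interval from -0.25 to 0.15 (limma adjusted p = 0.664).

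Gata2 moved the other way. It read 7.74, 7.45 and 7.65 in wild-type mice on chow and 6.68, 7.18 and 7.38 on high-fat diet, and 7.35, 7.28 and 7.60 in knockout mice on chow and 7.20, 7.17, 7.23 and 7.02 on high-fat diet. In both genotypes every high-fat array lay below every chow array. Gata2 fell by 0.54 ± 0.15 on the log2 scale, or 1.45-fold, in wild-type fat (limma adjusted p = 0.0127). The knockout difference of -0.25 ± 0.14 did not pass (adjusted p = 0.19), and the difference between genotypes in the diet change was 0.28 ± 0.21 (adjusted p = 0.682).

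Kit and Gata2 are also expressed by other cells, Gata2 in endothelium among them. Of 10 endothelial markers, 7 fell and 0 rose in wild-type mice, and 2 fell and 0 rose in knockout mice. Their mean lay between 9.80 and 9.84 in wild-type mice on chow and between 9.05 and 9.67 on high-fat diet; in knockout mice it lay between 9.69 and 9.84 on chow and between 9.38 and 9.71 on high-fat diet. The lowest endothelial mean and the lowest Gata2 value came from the same array, replicate 1 of the wild-type high-fat group, and the part of endothelial cells in the Gata2 difference was not tested.

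**Figure D2:**
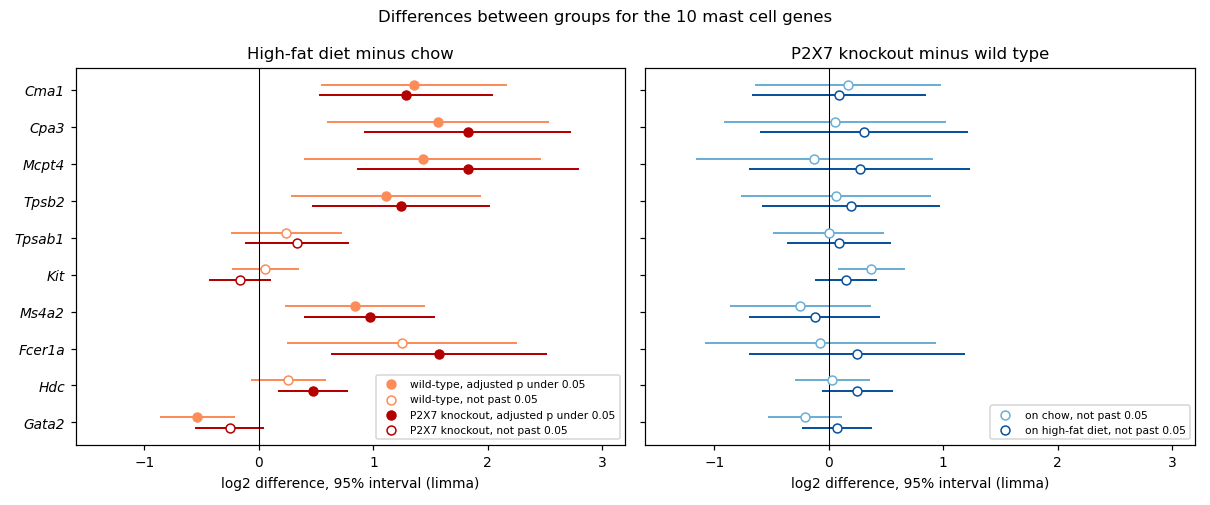
Differences in log2 expression of the 10 mast cell genes with 95% intervals from limma, for high-fat diet minus chow in each genotype (left) and for knockout minus wild type on each diet (right); filled points have an adjusted p under 0.05 over all genes. The diet differences of Cma1, Cpa3, Mcpt4, Tpsb2 and Ms4a2 are filled in both genotypes, whereas every genotype point is open, with intervals for Cpa3 reaching from -0.92 to 1.02 on chow and from -0.60 to 1.21 on high-fat diet.

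The wild-type calls depended on single arrays. Without the third wild-type high-fat array only 1 member passed, Gata2, where 5836 of all genes did. Mcpt4 dropped to 0.84 and Cpa3 to 1.07 in that fit (adjusted p = 0.146 and 0.0671, limma). Without the second, 8 members and 7039 of all genes passed, and Mcpt4 and Cpa3 read 2.06 and 2.18. When the 6 wild-type arrays were fitted alone, 1 member passed, Cma1, and 5251 of all genes. Leaving out the first wild-type high-fat array left 3 calls, the first wild-type chow array 3 and the second 2, and without the fourth knockout high-fat array 5 passed, Tpsb2 being lost. Over all genes 5678, 6327, 5943 and 6791 passed in those fits. The wild-type difference of Fcer1a passed when replicate 1 or 2 of the knockout high-fat arrays was left out (limma adjusted p = 0.0333 and 0.0403), with a second quantile normalisation (0.0492) and with array weights (0.0202). With the mean of the liver transcripts as a covariate, none of the 10 genes and 4093 of all genes passed in wild-type mice. There Cpa3 read 0.50 and Mcpt4 0.28. Knockout mice gave 7 members and 6268 of all genes with that covariate, and Cpa3 and Mcpt4 read 1.63 and 1.62. The part of the liver transcripts in the wild-type differences was not tested beyond this. In knockout mice 5 to 7 members passed whichever array was left out, where 5105 to 6652 of all genes did. Hdc was lost without replicate 2 or 3 of the chow arrays or replicate 2 or 3 of the high-fat arrays. Tpsb2 was lost without replicate 3 of the chow arrays. When the knockout arrays were fitted alone, 7 members and 6834 of all genes passed, with Mcpt4 at an adjusted p of 0.000268 (limma).

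The genotype comparison asked whether the loss of P2X7, an ATP-gated channel that mast cells also carry, altered these genes. None of the 10 passed on chow, on high-fat diet, over both diets or in the interaction of diet and genotype. Few genes of the array did: 0.133% of all genes on chow, 0.0425% on high-fat diet, 0.106% over both diets and 0% for the interaction. The smallest limma adjusted p among the members was 0.393 on chow, 0.747 on high-fat diet, 0.571 over both diets and 0.682 for the interaction. At an unadjusted p under 0.05, 1 member passed on chow, 0 on high-fat diet, 1 over both diets and 0 in the interaction. Of all genes, 9.62%, 7.41%, 7.23% and 9.72% did. With the second wild-type high-fat array left out, 44, 177, 62 and 106 of all genes passed limma's adjusted threshold, in that order, and 0 members.

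On high-fat diet the group means of Cpa3 were 9.60 ± 1.12 (SD, n = 3) in wild-type and 9.91 ± 0.56 (n = 4) in knockout mice, a difference of 0.31 with a 95% interval from -0.60 to 1.21. For Mcpt4 the means were 8.48 ± 1.22 and 8.76 ± 0.54, a difference of 0.27 with an interval from -0.70 to 1.24. Cma1 differed by 0.09, with an interval from -0.67 to 0.85, and Fcer1a by 0.25, with an interval from -0.70 to 1.19. The interval of the interaction was wider still, from -1.02 to 1.81 for Mcpt4 and from -1.07 to 1.58 for Cpa3.

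On chow none of the protease genes passed between the genotypes, and the intervals of Cpa3 and Mcpt4 were wide. Cpa3 averaged 8.03 ± 0.42 (SD, n = 3) in wild-type and 8.09 ± 0.22 (n = 3) in knockout mice, and Mcpt4 7.05 ± 0.53 and 6.93 ± 0.14. Their differences were 0.05 (95% interval -0.92 to 1.02) and -0.12 (-1.16 to 0.91).

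Kit was the member with an unadjusted p under 0.05 between genotypes. Its 3 knockout chow arrays lay above its 3 wild-type chow arrays, a pattern that 9.3% of all genes showed in that direction, and the difference was 0.37 ± 0.13 (unadjusted p = 0.0165, adjusted p = 0.393, limma). On high-fat diet Kit differed by 0.15 ± 0.13 and the groups overlapped, as did those of all the other members; 2.41% of all genes were higher in knockout mice on that diet without overlap. Kit and P2rx7 both lie on chromosome 5, with 382 measured genes between them. The difference did not pass, so no effect of genotype on Kit is read from it. Whether any such difference would belong to the targeted allele or to flanking sequence of the donor strain cannot be told apart in this design.

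The granule and receptor genes varied more between arrays of one group than nearly all other genes. The pooled within-group SD was 0.70 for Mcpt4, 0.68 for Fcer1a, 0.66 for Cpa3, 0.56 for Tpsb2, 0.55 for Cma1 and 0.41 for Ms4a2, against a median of 0.12 over all genes. Only 0.197% of genes varied at least as much as Mcpt4, 0.266% as much as Cpa3 and 1.46% as much as Ms4a2. Kit, Gata2 and Hdc, with SDs of 0.18, 0.21 and 0.20, were nearer the rest, as 19.4%, 13.7% and 14.1% of genes varied as much.

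That spread was shared. The third wild-type high-fat array held the highest value of its group for each of the 10 genes, and the second held the lowest for 8 of them, Kit and Gata2 apart. Among knockout mice on high-fat diet, the second array was highest for 9 genes and the first lowest for 8. The same low arrays also stood out in marker means. The second wild-type high-fat array had the lowest macrophage mean (10.58, against 10.91 and 10.99), the highest adipocyte mean (11.77, against 11.37 and 11.47) and the highest liver mean (6.86, against 5.88 and 5.27) of its group. The first knockout high-fat array likewise had the lowest macrophage mean (10.58, against 10.72 to 10.86), the highest adipocyte mean (11.81, against 11.55 to 11.65) and the highest liver mean (6.00, against 4.95 to 5.57). The part of these in the spread of the mast cell genes was not tested.

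**Figure D3:**
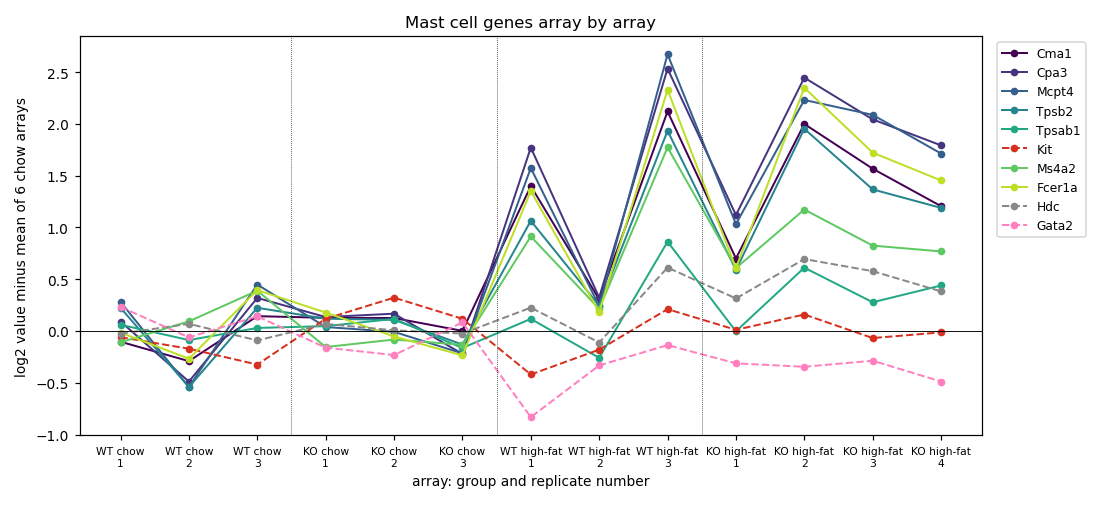
Log2 value of each mast cell gene minus its mean over the 6 chow arrays, for each of the 13 arrays in order of group and replicate number; each line is 1 gene, with Kit, Hdc and Gata2 dashed. On high-fat diet the granule and IgE receptor genes rise and dip on largely the same arrays, lowest on replicate 2 of the wild-type group and high on its replicate 3 and on replicate 2 of the knockout group, while Kit and Gata2 do not follow that course.

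Correlations across arrays were computed within each diet for all 45 pairs of the 10 genes, 90 tests in all, with exact two-sided permutation of the pairings and Benjamini-Hochberg adjustment over all 90. Across the 7 high-fat arrays, the 5 protease and 2 IgE receptor genes moved nearly as one: over their 21 pairs Pearson's r ran from 0.89 to 1.00 with a median of 0.95, and Spearman's rho from 0.86 to 1.00. All 21 pairs passed by r (adjusted exact permutation p from 0.00446 to 0.0271) and 18 by rho, and r stayed between 0.74 and 1.00 without the 2 arrays farthest from the median. The genes share each array's RNA, and both genotypes were pooled. How many gene pairs of the whole array would pass was not computed, so these counts are not read as particular to the mast cell genes.

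Single pairs show how tight this was. Cpa3 with Mcpt4 had r = 0.99 and rho = 1.00 over 7 arrays (exact permutation p = 0.000198 for r, the smallest that 7 arrays can give, adjusted p = 0.00446; rho p = 0.000397, adjusted p = 0.0179), and r = 0.98 without the 2 farthest arrays. Tpsb2 with Fcer1a, a protease gene with a receptor gene, had r = 1.00 and rho = 1.00 (exact permutation p = 0.000198 and 0.000397, adjusted p = 0.00446 and 0.0179), and r = 0.99 without the 2 farthest.

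Across the 6 chow arrays the same 21 pairs were looser, with r from 0.01 to 0.95 and a median of 0.69, and rho from -0.03 to 0.94. Only 2 pairs passed by r and 0 by rho: Cpa3 with Mcpt4 (r = 0.92, rho = 0.77, adjusted exact permutation p = 0.0357 and 0.243) and Mcpt4 with Tpsb2 (r = 0.94, rho = 0.94, adjusted p = 0.0139 and 0.060). Without the 2 farthest arrays the chow r ran from -0.82 to 0.97 and gave 0.59 and 0.95 for those 2 pairs. The difference in correlation between diets was not tested. The chow arrays span a narrower range of values, and several of these genes read far below the array medians on chow.

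Hdc followed the protease and receptor genes on high-fat diet, with r from 0.78 to 0.93 and 6 of 7 pairs past the threshold. On chow its r ran from -0.71 to -0.07, and 0 pairs passed (adjusted exact permutation p from 0.214 to 0.939). That chow range was -0.81 to 0.83 without the 2 farthest arrays and -0.56 to 0.26 with arrays centred on their medians. Kit and Gata2 did not follow the protease and receptor genes by the test. Kit gave r from 0.48 to 0.70 with them on high-fat diet (adjusted exact permutation p from 0.166 to 0.422) and from -0.80 to 0.33 on chow, and Gata2 gave r from 0.11 to 0.33 on high-fat diet and from -0.26 to 0.44 on chow.

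**Figure D4:**
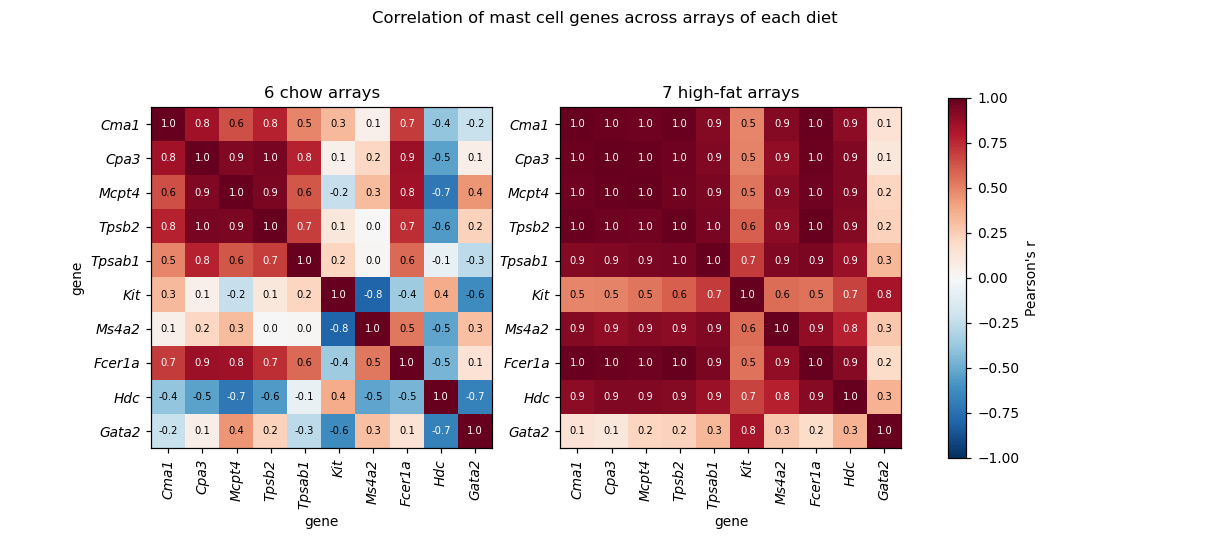
Pearson's r between each pair of the 10 mast cell genes across the 6 chow arrays (left) and the 7 high-fat arrays (right), coloured from -1 (blue) to 1 (red). The block of protease and IgE receptor genes runs from 0.89 to 1.00 on high-fat diet and from 0.01 to 0.95 on chow, and the Gata2 row is pale against that block on high-fat diet.

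Genes outside the members were then ranked by how closely they followed the mean of Cma1, Cpa3, Mcpt4 and Tpsb2 over the 13 arrays after each group's mean was taken off, among 2749 genes with a residual SD of at least 0.2. With 1 predicted gene, small RNA or clone name passed over, Mrgprb1 was closest (r = 0.98). It was followed by Cd24a (0.94), Mrgprb2 (0.93), P2ry14 (0.93), Rragd (0.92) and Gpr141b (0.92), then Slc38a1, Cass4, Ptpn6 and Aoah at 0.91. Members outside that mean gave r = 0.98 for Fcer1a, 0.92 for Tpsab1, 0.89 for Ms4a2, 0.86 for Hdc, 0.42 for Kit and 0.18 for Gata2. These are descriptions over arrays that share their RNA and carry no test. Mrgprb2 encodes the receptor of connective-tissue mast cells that basic secretagogues activate, and Mrgprb1 belongs to the same family. Mrgprb1 read 4.71, 4.17 and 4.80 in wild-type mice on chow and 5.97, 4.95 and 7.13 on high-fat diet, and 4.83, 4.79 and 4.68 in knockout mice on chow and 5.36, 6.82, 6.20 and 6.27 on high-fat diet. It rose by 1.46 ± 0.44 in wild-type fat (limma adjusted p = 0.0191) and by 1.39 ± 0.41 in knockout fat (adjusted p = 0.0184), with no overlap in either genotype. Mrgprb2 differed by 1.06 ± 0.41 and 0.96 ± 0.39, which did not pass (adjusted p = 0.0624 and 0.0726). Cd24a, which encodes a surface sialoglycoprotein, followed the protease genes within groups although diet lowered it, by 1.32 ± 0.20 in wild-type mice and by 0.96 ± 0.19 in knockout fat (adjusted p = 0.000192 and 0.00149).

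Among 15 further mast cell genes measured of 20 listed, 4 rose and 0 fell in wild-type mice and 6 rose and 0 fell in knockout mice, with medians of 0.48 and 0.49 on the log2 scale. The 4 of them with the smallest p are given first. Hpgds, the prostaglandin D synthase also found in macrophages, rose by 3.47 ± 0.20 in wild-type mice and by 3.34 ± 0.18 in knockout mice, and Mitf, a transcription factor of mast cells and macrophages, rose by 1.08 in both. Srgn, the granule proteoglycan core that other blood cells also make, rose by 0.23 ± 0.06 in knockout mice (limma adjusted p = 0.0158), and Ndst2, an enzyme of heparin sulfation, by 0.40 ± 0.10 in wild-type mice (adjusted p = 0.0067). Rgs13, a brake on signalling in mast cells named here after its values were seen, rose in knockout mice by 0.75 ± 0.24 (adjusted p = 0.0253) and differed by 0.61 ± 0.25 in wild-type mice (adjusted p = 0.0818). The mucosal proteases Mcpt1 and Mcpt2, also named after their values were seen, lay between 2.80 and 3.18 on all 13 arrays, and diet moved them by -0.03 and 0.08 in wild-type mice and by -0.04 and 0.00 in knockout mice, which did not pass.

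The list of IgE receptor signalling held 14 measured genes, the receptor's own gamma chain gene Fcer1g among them. Of these, 12 rose and 1 fell in wild-type mice and 11 rose and 1 fell in knockout mice. The median log2 changes were 1.24 and 0.93. Lat2, an adaptor of mast and B cells, rose by 3.33 ± 0.22 and 2.68 ± 0.21, Vav1 by 1.98 and 1.69, Btk by 1.90 and 1.61 and the kinase Syk by 1.76 and 1.06, in wild-type and knockout mice in that order. Macrophages express these genes too, and 10 of 11 macrophage markers rose in each genotype. The macrophage mean lay between 9.07 and 9.59 on chow and between 10.58 and 10.99 on high-fat diet, and the part of macrophages in these rises was not tested.

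Of 17 measured growth factors, cytokines and regulators of mast cells, 6 rose and 1 fell in wild-type mice and 8 rose and 0 fell in knockout mice. Spi1, a myeloid transcription factor, rose by 2.27 and 1.79, Runx1 by 1.62 and 1.34, Crlf2, a chain of the TSLP receptor, by 1.22 and 0.81, and Il3ra, a chain of the IL-3 receptor, by 1.04 and 0.60. Kitl, the stem cell factor gene named after its values were seen, lay between 8.97 and 9.15 in wild-type mice on chow and between 8.95 and 9.17 on high-fat diet, and read 8.92, 9.05 and 9.03 in knockout mice on chow and 9.34, 9.26, 9.38 and 9.31 on high-fat diet. Kitl rose in knockout mice by 0.32 ± 0.07 (limma adjusted p = 0.0024) and overlapped between diets in wild-type mice, where the difference was 0.04 ± 0.07 (adjusted p = 0.737). Il33, an alarmin that mast cells sense, was also named after its values were seen: it rose by 0.43 ± 0.16 in knockout fat (adjusted p = 0.0496) and differed by -0.36 ± 0.17 in wild-type mice (adjusted p = 0.12). In the main fit the interaction of diet and genotype passed for 0 genes of the array by limma. An unadjusted p under 0.05 for it was met by 9.72% of genes, so no difference between the genotypes is read from these pairs.

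Of 8 measured genes for histamine receptors, transport and breakdown, 0 rose and 1 fell in wild-type mice and 1 rose and 2 fell in knockout mice. Hnmt, which breaks histamine down inside cells, fell by 0.80 ± 0.10 in wild-type mice and by 0.62 ± 0.10 in knockout mice (limma adjusted p = 4.2e-05 and 0.000236). Hrh2, a histamine receptor, fell by 0.38 ± 0.11 in knockout fat (adjusted p = 0.0209). Slc18a2, the vesicular amine transporter that loads histamine into granules, rose by 0.73 ± 0.23 in knockout fat (adjusted p = 0.0256) and differed by 0.13 ± 0.25 in wild-type mice (adjusted p = 0.738). Of 13 measured genes for heparin and the granule proteoglycan, 6 rose and 3 fell in wild-type mice and 5 rose and 1 fell in knockout mice. Xylt1, which starts the sugar chains, rose by 1.76 and 1.07 and Hs6st1, a sulfotransferase, by 0.83 and 0.92, while Ext2, which lengthens the chains, fell by 0.34 and 0.46.

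Basophils share several of these genes, and the lists overlap. Cd200r3 is also counted among the further mast cell genes, and Il3ra among the growth factors, cytokines and regulators. Of 5 basophil markers, 1 rose in each genotype, the receptor gene Il3ra, which other cells also express, and 2 rose over both genotypes, Il3ra and Cd200r3 (0.41 ± 0.13, limma adjusted p = 0.0202). The mean of the 5 markers lay between 4.57 and 4.61 in wild-type mice on chow and between 4.81 and 5.09 on high-fat diet, and between 4.64 and 4.72 in knockout mice on chow and between 4.88 and 5.34 on high-fat diet; the part of basophils in the changes of the mast cell genes was not tested. Mcpt8, the basophil protease named after its values were seen, lay between 3.02 and 3.37 on all 13 arrays and differed by -0.14 ± 0.07 in wild-type mice and by -0.05 ± 0.06 in knockout mice (limma adjusted p = 0.122 and 0.624). Prss34, another protease of basophils and mast cells, differed by 0.15 and by 0.59 ± 0.22 (adjusted p = 0.677 and 0.0559). Of 6 eosinophil markers, 0 rose and 1 fell in wild-type mice and 0 rose and 2 fell in knockout mice; of 8 neutrophil markers, 2 rose and 2 fell in each genotype. Adipocyte markers went the other way from the granule genes, with 9 of 10 lower in wild-type mice and 8 of 10 in knockout mice, and 1 higher in each.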

How the data were processed

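Total RNA (100 ng per array) was extracted with TRIzol and RNEasy per the labels. The authors deposited a log2 value for each probe set and array, made with RMA (robust multichip average), per the submitters' processing notes, which give no version. Nothing was renormalised. Of 35556 probe sets, 21218 had 1 gene symbol, 1881 several and 12457 none; those with 1 were used, the highest-mean probe set standing for each of 18820 genes.

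One linear model with 4 group means was fitted to all 13 arrays in limma 3.58.1 (R 4.3.3) with an intensity trend. It gave each gene a single variance for all groups, although the spread of the protease and receptor genes differed between groups. The words "rose" and "fell" stand for an adjusted p under 0.05 (Benjamini-Hochberg, over the 18820 genes of that contrast). Correlations and figures used Python 3.11.15 with scipy 1.17.1, pandas 2.3.3, numpy 2.4.6 and matplotlib 3.10.9. The steps were tested on simulated data with independent noise and 1 SD per gene for all groups. False calls made up 1.72% to 8.06% of calls by contrast, and 53% (the interaction) to 90% of 1.5-fold changes were recovered. That simulation does not cover the unequal spread of the protease and receptor genes. The number of arrays limits the precision.

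Members and lists were chosen with earlier results of these data known. Of 170 list entries outside the members, 14 were not measured. Some lists overlap, so their counts are not separate. Slc18a2 stood in the further mast cell and histamine lists, and Srgn and Ndst2 in the further mast cell and heparin lists. All members were named, as were the 10 genes most like the proteases, predicted genes, small RNAs and clone names being passed over. A rule took from each list up to 4 passing genes with the smallest p or, with none passing, 2 as values. Not all of these are named in the text: B4galt7 and most markers of other cells and tissues were given in list counts only. Alternatives changed the variance model, scaling, dim-gene filter, array weights, probe set choice, groups fitted, a replicate block, a liver covariate and the arrays included.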

Additional observations from a re-analysis of the deposited data

Results flagged for a closer look

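Values were checked for a stray array in the 4 knockout high-fat arrays for the 49 members and other genes named; chance flags about 1 in 20 such groups, and 3 were found. None was a member. Srgn was highest in the third array at 11.95, with 11.89 in each of the others. Runx1 was lowest in the first array at 9.41, against 9.64, 9.66 and 9.67. Xylt1 was lowest in the fourth array at 8.99, against 9.22, 9.23 and 9.25.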

How the results depend on the processing

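The count of members passing for diet in wild-type mice was 6. It was 1 when only the wild-type arrays were fitted, 0 with the liver mean as a covariate, and 1 to 8 when single arrays were left out. Over all genes those settings gave 5251, 4093 and 5678 to 7039 calls, against 6736 in the main fit. For diet in knockout mice the member count was 7, and 3 when genes not above the median in at least 3 arrays were removed, which leaves fewer genes tested. That filter took out Cma1, Tpsab1, Ms4a2, Fcer1a and Hdc untested, and the members that stayed kept their diet calls. Over all genes the knockout counts were 6429 and 5330. Over both genotypes the member count was 8, then 4 under that filter and 5 with the liver covariate, where 8759, 6744 and 6633 of all genes passed. The member counts for genotype and for the interaction were 0 under every setting. No value that passed changed direction. Over the 21 protease and receptor pairs the median chow r was 0.69, and 0.57 without the 2 farthest arrays. The main fit did not pair samples by number. Same-numbered arrays correlated at -0.30 to 0.22 in their deviations from the group means, above 0.1 in 6 of 18 pairs. Other-numbered arrays correlated at -0.41 to 0.53, above 0.1 in 10 of 45 pairs. These few dependent values cannot decide whether samples were paired by replicate number. With the number as a replicate block, 5 members passed in wild-type mice (Tpsb2 was lost, adjusted p = 0.0646) and 7 in knockout mice. Among the listed genes tested it ended the knockout calls of Hrh2, Slc18a2, Prg3, Mrgprb1, Il33 and Rgs13 (adjusted p from 0.0533 to 0.134) and no other diet call. Over all genes, diet in wild-type mice gave 6736 calls, and 4093 with the liver covariate. Genotype gave 25 on chow, 8 on high-fat diet and 20 over both diets. These became 6, 0 and 6 with the replicate block. The 25 became 0 with the liver covariate, 8 became 2 when only the high-fat arrays were fitted, and 20 became 32 with array weights. When single arrays were left out, genotype gave 2 to 44 calls on chow, 6 to 177 on high-fat diet and 11 to 62 over both diets. The interaction gave 0 to 106, against 0 in the main fit. The highest of each came without the second wild-type high-fat array.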

Other observations

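Markers of other cells in the depot also moved with diet. Of 9 measured mesothelial markers, 7 fell in wild-type mice and 9 in knockout mice, with 0 rising. Of 9 measured progenitor and fibroblast markers, 3 rose and 3 fell in wild-type mice and 3 rose and 2 fell in knockout mice. Of 9 measured epididymal duct markers, 1 fell in each genotype, and of 12 liver transcripts 8 fell in wild-type mice and 1 in knockout mice, with 0 rising in either list.

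A further pair of probe sets was assigned to Mcpt4 together with Cma2 and Mcpt9, so neither could be named for 1 gene. Their log2 values lay between 3.46 and 4.23 over all 13 arrays. The first read 3.59, 3.52 and 3.59 in wild-type mice on chow and 3.72, 3.66 and 3.85 on high-fat diet, and 3.56, 3.66 and 3.52 in knockout mice on chow and 3.59, 3.92, 3.78 and 4.23 on high-fat diet.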
